A study of Mus musculus with 2 samples.

Results

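The zinc finger protein genes of mouse chromosome 7 whose symbols are Zfp and a number below 900 were examined for H3K9me3, a histone mark of silenced chromatin. They were taken from a RefSeq table of the build GRCm38.p6 as the protein-coding genes of that chromosome that carry such a symbol, which gave 81 members among 21839 protein-coding genes of chromosomes 1 to 19, X and Y. The rule uses position and symbol and no measured value, though it was set with earlier results of these data known. The mark was profiled by chromatin immunoprecipitation and sequencing (ChIP-seq) in intestinal stem cells sorted for high GFP and low CD24, from intestines of 12 mice of the strain C57BL/6 at 8 weeks of age. All mice carried Lgr5-EGFP-IRES-creERT2, which places GFP and a tamoxifen-inducible Cre under the stem cell gene Lgr5, and a floxed Setdb1, an H3K9 methyltransferase gene. No label says whether Setdb1 had been deleted, so the mice are described by their alleles alone. There was 1 H3K9me3 library and 1 control library from the same kind of cells, which the labels call input in one place and IgG in another, and no other genotype or treatment was analysed here. Without replicates no test between samples could be made, and every comparison here is a description.

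Most Zfp genes encode proteins with C2H2 zinc fingers, which read DNA, and many also carry a KRAB domain. KRAB proteins recruit the corepressor TRIM28 (KAP1) and, through it, SETDB1, which trimethylates H3K9 at the bound site, commonly a transposable element. The genes themselves arose by local duplication and stand in clusters, and in other cell types H3K9me3 is known to lie over KRAB zinc finger genes, where the last exon usually encodes the whole finger array. The symbol does not define a family, however. Zfp36, for one, encodes tristetraprolin, a CCCH finger protein that binds AU-rich messenger RNAs and speeds their decay.

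The deposited list held 40119 peaks, of which 39972 lay on chromosomes 1 to 19, X and Y and 2784 on chromosome 7. Each peak carries a normalized ChIP tag count, the sequenced tags in the peak scaled to a fixed total. Of 31084 low values, 100% were whole steps of 0.5 tag within a tolerance of 0.1 step, which put 1 tag at 1.048 normalized tags and allowed the tags behind each value to be recovered. The lowest peak in the list rested on 9 tags, so a gene without a peak is one below what was called at this depth, not one shown to lack the mark. Control tags are given per peak, with a floor of 0.5 tag, and a fold over control is taken after scaling by 0.684, the ratio of control to ChIP tags. Intervals are 95%, exact Poisson for tags and exact Clopper-Pearson for shares, and cover counting error only. Peaks carry no expression, so the sorted cell type could not be checked by marker levels. Of the marker lists, peaks lay over 6 of 8 stem cell genes, 0 of 3 Paneth, 2 of 2 enteroendocrine, 1 of 2 goblet, 0 of 2 enterocyte and 0 of 2 immune genes, lists too small to read against the 55.4% of all protein-coding genes that had a peak.

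H3K9me3 was called over most of the members. A peak touched the gene or the 5 kb on either side, here called marked, at 54 of 81 members (66.7%, 55.3 to 76.8%) and at 1025 of 1946 other protein-coding genes of chromosome 7 (52.7%, 50.4 to 54.9%). Over all protein-coding genes the share was 55.4%, and over all those of chromosome 7 it was 53.2%. The members are somewhat longer, with a median span of 13.4 kb against 10.0 kb for the other chromosome 7 genes. Whether length bears on the difference in share was not tested. Among other chromosome 7 genes within the 10th to 90th percentile of member length (4.22 to 29.7 kb), a range chosen after values were seen, 555 of 914 (60.7%) were marked, inside the interval of the members. A peak touched the gene span itself at 50 members (61.7%) and 827 other chromosome 7 genes (42.5%), where the backgrounds were 46.5% over all protein-coding genes and 43.3% over those of chromosome 7.

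Tall peaks lay over a larger share of the members than of other chromosome 7 genes or of all protein-coding genes, a difference that could not be tested. A peak was called strong when it stood in the top 10% of the list, at 50.8 normalized tags or more. Tall and tallest refer here to the normalized tags of a whole peak, not to its summit, so a wider peak can hold more. There was a strong peak over 12 of 81 members (14.8%, 7.90 to 24.4%), against 104 of 1946 other chromosome 7 genes (5.34%, 4.39 to 6.44%). The backgrounds were 6.59% over all protein-coding genes and 5.72% over those of chromosome 7, and of the chromosome 7 genes of member length 40 of 914 (4.38%) had one. Among related genes the share was higher, 11 of 62 (17.7%), for Zfp genes numbered 900 and above. It was 20 of 217 (9.22%) for those below 900 on other autosomes. At least 5 peaks lay over 4.56% of all protein-coding genes, over 3.26% of those of chromosome 7 and over 3 members, the long genes Zfp536 with 20 and Zfp710 with 7, and the short gene Zfp628 with 5. The other marked members held 1 peak (20 genes), 2 peaks (13 genes), 3 peaks (11 genes) or 4 peaks (7 genes), and 27 members held none.

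By length, again in classes set after values were seen, the marked shares of the members and of the other genes of chromosome 7 ran in opposite order. The intervals of the members overlap between the classes, so their order is within counting error. Of members under 8 kb, 14 of 17 (82.4%, 56.6 to 96.2%) were marked, against 328 of 870 other chromosome 7 genes of that length (37.7%, 34.5 to 41.0%). From 8 to 16 kb the counts were 24 of 34 members (70.6%, 52.5 to 84.9%) and 201 of 336 other genes (59.8%, 54.4 to 65.1%). At 16 kb or more they were 16 of 30 members (53.3%, 34.3 to 71.7%) and 496 of 740 other genes (67.0%, 63.5 to 70.4%). From 8 kb upward the shares of the other genes lay inside the intervals of the members. Strong peaks lay over 6 of the 17 short members (35.3%) and over 32 of the 870 short genes of the rest of the chromosome (3.68%). Over all protein-coding genes of any length, 55.4% were marked and 6.59% had a strong peak. Shares by length class were not taken beyond chromosome 7. Of the 17 short members, 9 stand in 2 clusters described below, so these genes share neighbourhoods and some peaks and are not independent of each other.

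**Figure D1:**
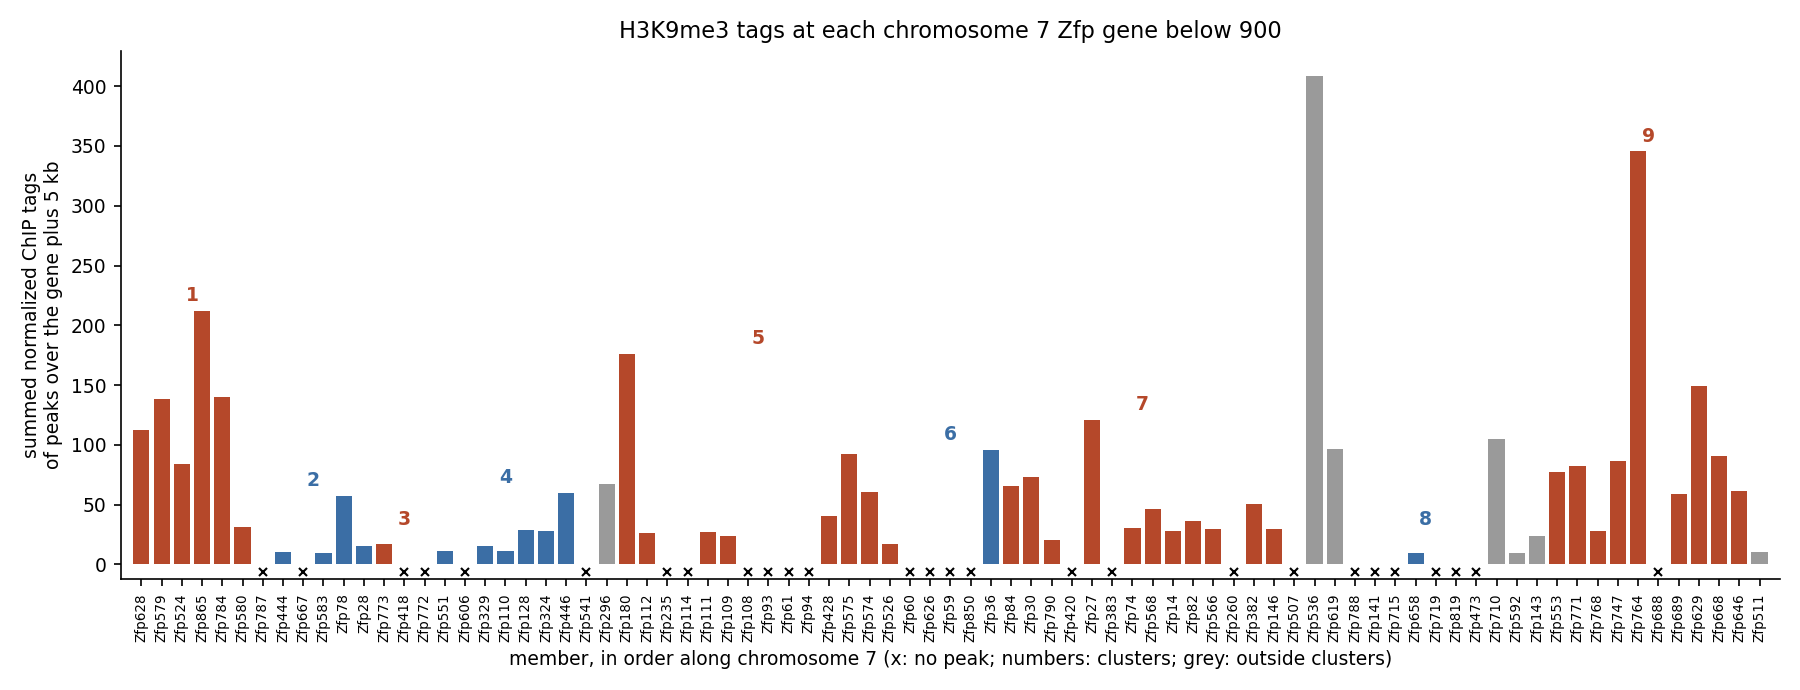
Summed normalized ChIP tags of all peaks over each gene plus 5 kb (y axis) for the 81 members in order along chromosome 7 (x axis). Crosses mark the 27 members with no peak, numbers mark clusters, grey bars lie outside clusters and the other 2 colours only alternate between clusters; the tallest groups of bars are clusters 1 and 9, and the tallest single bar is Zfp536.

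The peaks over members were like other chromosome 7 peaks in width and in fold over control. The 122 separate peaks were 500 to 3885 bp wide with a median of 771 bp, against a median of 762.5 bp for the 2662 other peaks of the chromosome. The narrowest width, 500 bp, was held by 40 peaks over members (32.8%) and by 872 others (32.8%). Normalized tags ran from 9.43 to 149.3 over members with a median of 17.8, and from 9.43 to 6778 elsewhere with a median of 17.3. Summed ChIP tags were 3123.5 (3015 to 3235) in the peaks over members against 210.5 control tags, a fold of 10.2 after scaling, and the same fold was 9.87 for the other peaks of chromosome 7. At 54 peaks over members (44.3%) the control stood at its floor, and so it did at 1167 others (43.8%).

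Peaks lay more densely in the windows of the members. Peaks covered 4.83% of the 2.37 Mb of member windows and 1.95% of the 69.9 Mb of windows of other chromosome 7 genes, or 3.68% for those of member length. Per 100 kb of window there were 132 tags in peaks over members (127 to 136), 48.5 over other chromosome 7 genes and 88.7 over those of member length. The density was uneven among members. Clusters 1 and 9, described below, held 483 and 777.5 of the 3123.5 tags in 78.6 and 174 kb of windows. The remaining clusters carried between 10.6 and 152 tags per 100 kb, and no density was taken for the members without clusters 1 and 9. Inside the Zfp clusters the 69 members had 164 tags per 100 kb (158 to 171) and 5.83% coverage, and 47 were marked (68.1%), 11 with a strong peak (15.9%). The other protein-coding genes there had 103 tags per 100 kb (99.3 to 108) and 4.11% coverage, and 61 of 98 were marked (62.2%), 9 with a strong peak (9.18%). Among related genes, Zfp genes below 900 on other autosomes were marked at 125 of 217 (57.6%) with strong peaks at 20 (9.22%) and 59.95 tags per 100 kb. Zfp genes numbered 900 and above, 9 of them on chromosome 7, were marked at 36 of 62 (58.1%) with strong peaks at 11 (17.7%) and 114 tags per 100 kb. Both of these sets are longer than the members, with median spans of 19.3 and 23.3 kb against 13.4 kb, and they were not matched for length.

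**Figure D2:**
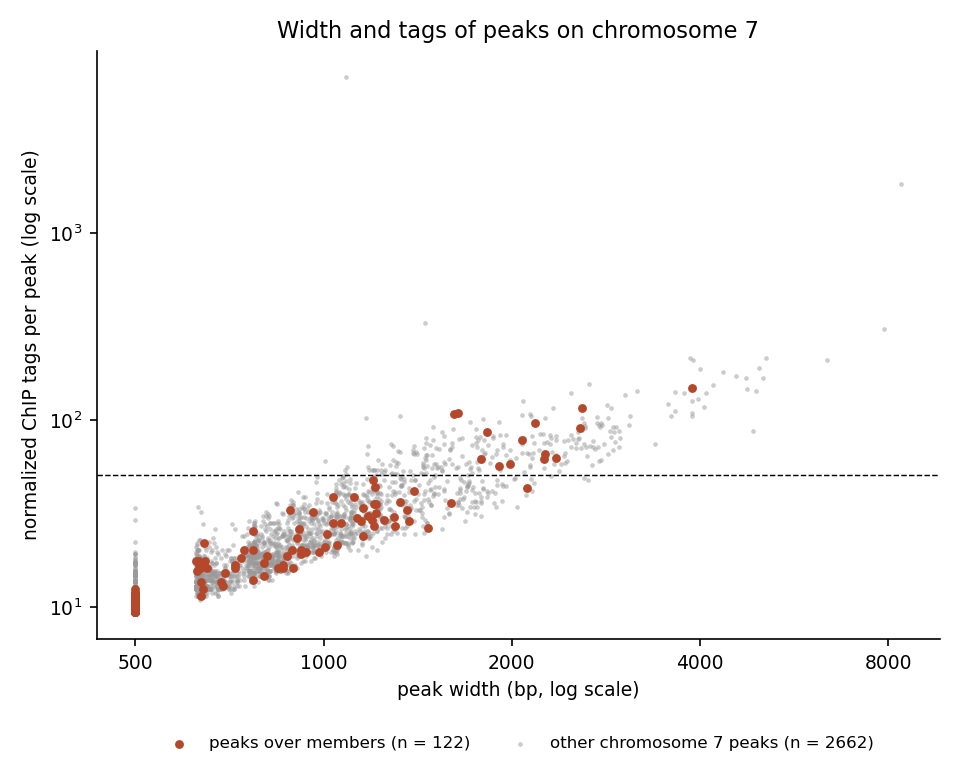
Normalized ChIP tags (y axis, log scale) against width in bp (x axis, log scale) for the 122 peaks over members and the 2662 other peaks of chromosome 7, 1 point per peak. The dashed line is the strong threshold of 50.8 normalized tags; 14 peaks over members lie above it, none wider than 3885 bp, while other peaks of the chromosome reach 8395 bp.

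The 14 strong peaks over members were broad and had several times the control signal. They were 1615 to 3885 bp wide (median 2127 bp), held 57.1 to 149.3 normalized tags and made up 36.8% of all tags in peaks over members. That share was no higher than elsewhere, since strong peaks made up 39.2% of tags in the other peaks of chromosome 7 and 39.45% in all peaks. Of the peaks over members 11.5% were strong, against 9.54% of the other chromosome 7 peaks and 10.1% of all peaks. The 254 other strong peaks of chromosome 7 had a median width of 1946 bp. Control tags in the 14 had a median of 6 and a highest value of 15.5, and the median fold over control was 10.3.

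The tallest and widest was at Zfp764. It was 3885 bp wide, at chr7:127383698-127387583 inside the gene, with 142.5 ChIP tags (120 to 168) against 8.5 control tags, a fold of 11.5. A second strong peak of Zfp764 lay near its start with 59 ChIP tags and 5.5 control tags. Another strong peak, with 82.5 ChIP tags (65.7 to 102) and 2.5 control tags, a fold of 22.6, lay inside its short neighbour Zfp747 and within 5 kb of the end of Zfp764, so it counts for both. With its remaining peak, Zfp764 summed to 330 ChIP tags over 20.4% of its window, the most of any member other than Zfp536.

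Zfp180 and Zfp27 each had 1 tall peak near the 3′ end of the gene. In Zfp180 it was 2585 bp wide and held 111 ChIP tags (91.3 to 134) against 7.5 control tags. Its centre was 23.7 kb from the start of a 25.8 kb gene. In Zfp27 it was 2181 bp wide and held 92.5 ChIP tags (74.6 to 113) against 6 control tags, 11.6 kb into a 13.2 kb gene.

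At Zfp629 the taller of its strong peaks lay upstream of the gene, with 86.5 ChIP tags against 6.5 control tags, and the other, inside it, had 56 ChIP tags against 8 control tags and a fold of 4.79. Zfp579 had the highest control value over any member, 15.5 control tags against 104 ChIP tags (85.0 to 126), a fold of 4.59. Leaving out peaks with more than 10 control tags removed that peak alone and left 11 members with a strong one.

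Zfp865 and Zfp784 shared a peak of 102.5 ChIP tags (83.6 to 124) against 9 control tags, which lay inside Zfp865 and in the flank of Zfp784. Zfp575 had 63 ChIP tags against 4 control tags in a 2261 bp peak. Zfp628, which germ cells need to complete sperm formation in mice, had 60 ChIP tags against 3 control tags in a 2355 bp peak. Zfp36 had 59.5 ChIP tags (45.4 to 76.7) against 3 control tags in a 1787 bp peak over its start, and its 4 peaks covered 26.4% of the window of a 2.44 kb gene. The members with a strong peak had a median span of 7.79 kb, from 2.44 kb for Zfp36 to 456 kb for Zfp536, against 13.4 kb over all members.

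Zfp536, which encodes a zinc finger repressor of neuronal differentiation expressed in the brain, is the longest member at 456 kb, and its 20 peaks were spread over the whole gene. They summed to 390.5 ChIP tags (353 to 431) against 21 control tags but covered only 3.51% of the window. Its 2 strong peaks lay 201 and 290 kb from the start, with 75 and 54.5 ChIP tags against 6 and 1 control tags. Of its 20 peaks, 9 were at the least width of 500 bp. Zfp710, at 67.9 kb, had 100 ChIP tags in its 7 peaks and the tallest of them, with 31 ChIP tags, stood at 90.1% of the span.

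The other marked members numbered 42 without a strong peak. Several have known functions. Zfp568, a KRAB protein that represses a placental transcript of Igf2 in mouse embryos, had 3 peaks that summed to 44.5 ChIP tags against 5 control tags. Zfp296, a gene expressed in pluripotent and germ cells, had 3 peaks with 64 ChIP tags against 4.5 control tags, the tallest of them downstream of the gene. Zfp143, an activator that binds many promoters, had 1 peak with 23 ChIP tags against 1 control tag. Zfp110, known as a partner of the neurotrophin receptor p75, had 1 peak with 10.5 ChIP tags against the control floor of 0.5 tag, close to the least the list holds.

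In position, 69 of the 81 members fell into 9 clusters, defined as runs in which each member lay within 500 kb of the next, and every cluster held at least 1 peak. The clusters differed widely in how much of the mark they carried. Clusters 1 and 9, near opposite ends of the chromosome, carried 615 and 448 tags per 100 kb of member windows, while the others carried between 10.6 and 152. Outside the clusters 7 of 12 members were marked and the windows held 77.2 tags per 100 kb.

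Cluster 1, Zfp628 to Zfp580 at chr7:4915181-5053723, was marked at 6 of 6 members, 4 with a strong peak. Its 14 separate peaks held 483 ChIP tags (441 to 528) against 41.5 control tags, a fold of 7.97, and covered 17.9% of the member windows. The members here are short, with a median of 5.41 kb, and Zfp628, Zfp579, Zfp524, Zfp865 and Zfp784 summed to 107.5, 132, 80, 202.5 and 134 ChIP tags over their windows. Zfp580 had 29.5.

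Cluster 9, Zfp553 to Zfp646 at chr7:127233061-127885996, was marked at 9 of 10 members, 3 with a strong peak. Its 19 peaks, 5 of them strong, held 777.5 ChIP tags (724 to 834) against 54 control tags, a fold of 9.85, and covered 15.1% of the windows. The median peak was 1198 bp wide, against 902 bp in cluster 1 and 771 bp over all members. Besides Zfp764, Zfp747 and Zfp629, the marked members Zfp668, Zfp771, Zfp553, Zfp646, Zfp689 and Zfp768 summed to between 27 and 86.5 ChIP tags. Zfp688 stood alone without a peak, in a 4.28 kb span whose nearest peak was 12.2 kb away. The other protein-coding genes among these members were marked at 16 of 22, 2 with a strong peak.

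The 2 largest clusters had 14 members each and an intermediate level. Cluster 7, Zfp84 to Zfp146 at chr7:29768552-30169775, was marked at 11 of 14 members with 20 peaks and 127.9 tags per 100 kb (116 to 141). Its peaks were spread over many members, between 19.5 and 69.5 summed ChIP tags each except at Zfp27, which had 115.5. It includes Zfp30, a KRAB gene tied to neutrophil recruitment in the mouse lung, with 69.5 ChIP tags against 2.5 control tags in 3 peaks. Zfp420, Zfp383 and Zfp260, the last a cardiac cofactor of GATA4, had no peak.

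Cluster 5, Zfp180 to Zfp526 at chr7:24081877-25227876, was marked at 8 of 14 members, and its 152 tags per 100 kb (138 to 167) came in large part from Zfp180 and Zfp575 with their strong peaks. Its middle was sparse. Zfp235 and Zfp114 lay next to each other unmarked, then Zfp111 and Zfp109 had 1 peak each, and then Zfp108, Zfp93, Zfp61 and Zfp94 formed an unmarked run of 62.0 kb with 0 peaks anywhere inside. Beyond them Zfp428, Zfp575, Zfp574 and Zfp526 were marked. The other protein-coding genes of this cluster were marked at 20 of 30, 2 with a strong peak.

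Cluster 6, Zfp60 to Zfp36 at chr7:27731409-28379228, was marked at 1 of 5 members, the RNA-binding Zfp36. Zfp60, Zfp626, Zfp59 and Zfp850 made an unmarked run of 282.8 kb, with 2 peaks between their windows. The other protein-coding genes of the same stretch were marked at 12 of 16, a contrast of small counts that was not tested. Cluster 8, Zfp715 to Zfp819 at chr7:43296522-43618279, had the fewest tags, 10.6 per 100 kb (4.98 to 19.8), with 1 of 4 members marked. Its other protein-coding genes were marked at 1 of 12. Its only marked member was Zfp658 with 9.5 ChIP tags, and its unmarked ones include Zfp819, a KRAB protein that binds TRIM28 in mouse embryonic stem cells.

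Clusters 2, 3 and 4 were lightly marked and had no strong peak over members. In cluster 2, Zfp787 to Zfp28, 4 of 6 members were marked and Zfp787 and Zfp667 were not, with 44.1 tags per 100 kb. In cluster 3, Zfp773 was marked, by a peak in its flank, and Zfp418 and Zfp772 were not. In cluster 4, Zfp551 to Zfp446, 6 of 7 were marked by 8 peaks with 79.4 tags per 100 kb, and Zfp606 was the member without one.

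**Figure D3:**
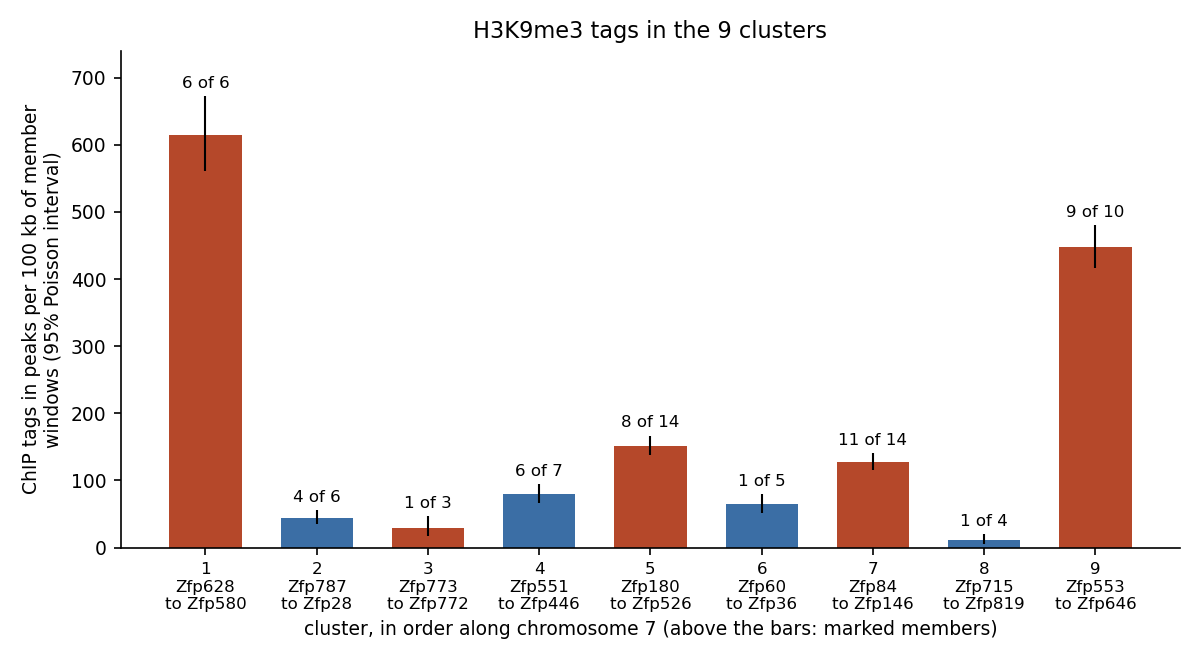
ChIP tags in peaks per 100 kb of member windows (y axis) in the 9 clusters in order along chromosome 7 (x axis), with exact Poisson 95% intervals for counting error and the number of marked members above each bar; the 2 colours only alternate. Clusters 1 and 9 reach 615 and 448 tags per 100 kb, and cluster 8 is lowest at 10.6.

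Of the 27 unmarked members, 22 stood in clusters, and 14 of these made up 5 runs of 2 to 4 successive members. Of these runs, Zfp418 with Zfp772, the 4 genes from Zfp108 to Zfp94, and Zfp719 with Zfp819, had 0 peaks between their ends. A peak was often close by all the same. The nearest one lay between 5972 bp and 59.3 kb from the gene, with a median of 12.2 kb, and within 20 kb for 17 of the 27. Zfp626 and Zfp715 were the farthest, at 59.3 and 59.2 kb. The unmarked members were not the short ones, with a median span of 16.8 kb against 13.0 kb for marked members. They include Zfp541, a meiotic gene of spermatocytes, and Zfp473, whose human counterpart takes part in histone mRNA processing.

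Some neighbouring members shared peaks, which was not counted for other neighbouring genes. Of the 122 peaks, 17 touched the windows of 2 members, none touched more, and 20 members held such a peak. At 6 marked members every peak was shared, and at 4 every peak lay in the flanks outside the gene, so these peaks cannot be assigned to 1 gene by position. Among the strong ones Zfp784 is such a case, since its tallest peak lay in Zfp865. Between Zfp84 and Zfp30, 2 peaks of 26 and 9.5 ChIP tags counted for both, the taller over the start of Zfp30.

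For 73 of the 81 members the strand and the starts of transcripts were given in a RefSeq promoter table, which allowed peaks to be placed from 5′ to 3′. Midpoints and segments were measured from the outer end of the gene span, and at 15 members the listed start lay over 1 kb inside it. The only peak of Zfp580, for one, lay 1.72 kb from its listed start but at 96.9% of the span. A peak lay within 1 kb of a start at 21 of 73 members (28.8%), against 382 of 1669 other chromosome 7 genes (22.9%). Over all protein-coding genes with a start the share was 26.9%, and 23.1% over those of chromosome 7, so starts were marked in the members at near the background rate. The tallest peak lay past the middle of the gene at a larger share of marked members than of other marked genes of chromosome 7, a difference that was not tested. Past the midpoint, the flank after the end included, it was found at 29 of 47 marked members (61.7%) and 413 of 873 marked other genes of chromosome 7 (47.3%). The backgrounds were 43.2% over all marked protein-coding genes and 48.0% over those of chromosome 7. It was 43 of 94 (45.7%) for Zfp genes below 900 on other autosomes and 13 of 31 (41.9%) for those numbered 900 and above. No interval was taken for the share of the members, which rests on 47 genes. At some of them, such as Zfp784 and Zfp566, the tallest peak lay beyond the gene end, in or at the start of a neighbouring member.

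Tags were also denser toward the 3′ end, though peaks were not more frequent in the last segment of the gene than in the first. With each span cut into 4 equal segments, tags in peaks per 100 kb were, from 5′ to 3′, 112, 73.0, 165 and 177 (164 to 190 in the last) for the members and 70.6, 37.3, 41.7 and 56.6 for other chromosome 7 genes. The upstream 5 kb held 76.7 in members and 71.3 in other genes, and the downstream 5 kb held 135 and 67.3. Zfp536 makes up much of the length summed here, and without it, a choice made after values were seen, the members had 132, 61.2, 189 and 216 in the 4 segments. In the last segment 21.9% of members (13.1 to 33.1%) and 17.2% of other genes had a peak, and there were 5.70 peaks per 100 kb in members and 2.87 in other genes. In the first segment 26.0% of members and 18.9% of other genes had a peak, with 5.95 peaks per 100 kb in members and 3.13 in other genes. Of the peaks in the last segment 13.0% were strong in members and 5.06% in other genes. The strong peaks in the last segment were those of Zfp180, Zfp27 and Zfp764. They held 111, 92.5 and 142.5 of the 712.5 ChIP tags in that segment, so its density came in large part from 3 genes. The median peak in the members held 16.5, 24.6, 21.5 and 18.3 normalized tags in the 4 segments from 5′ to 3′. Exon positions were not used here, so none of these peaks was assigned to a finger-coding exon.

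**Figure D4:**
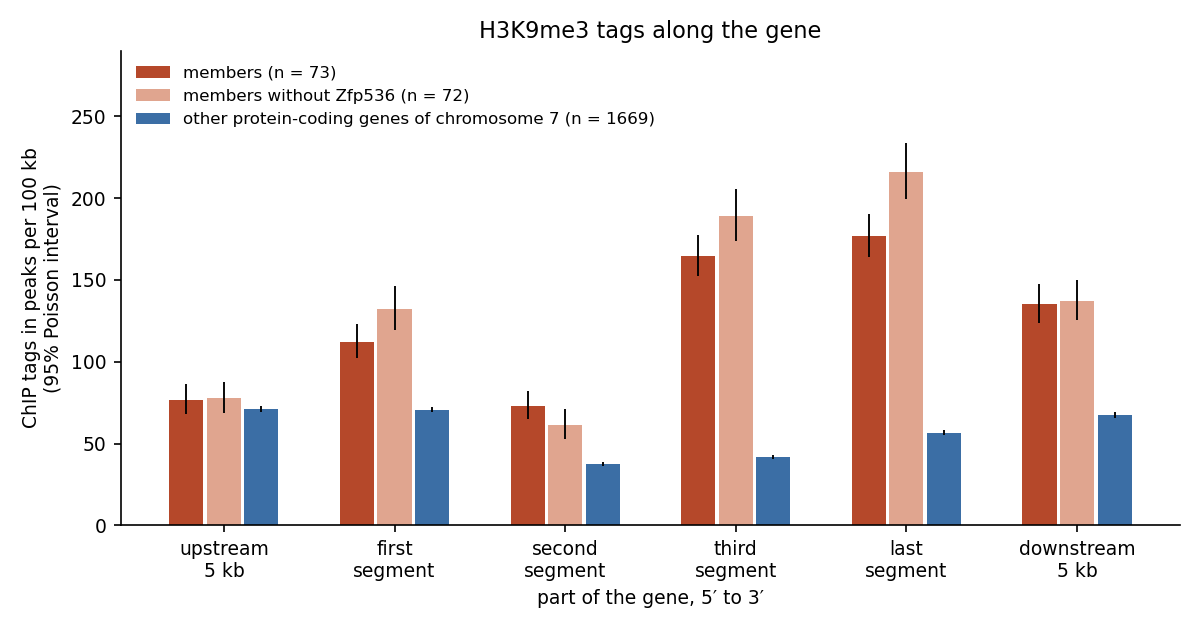
ChIP tags in peaks per 100 kb (y axis) in the upstream 5 kb, the 4 equal segments of the gene span and the downstream 5 kb (x axis), with exact Poisson 95% intervals for counting error, for 73 members, the 72 members without Zfp536 and 1669 other protein-coding genes of chromosome 7. Members reach 165 and 177 in the last 2 segments, and other genes 41.7 and 56.6.

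**Figure D5:**
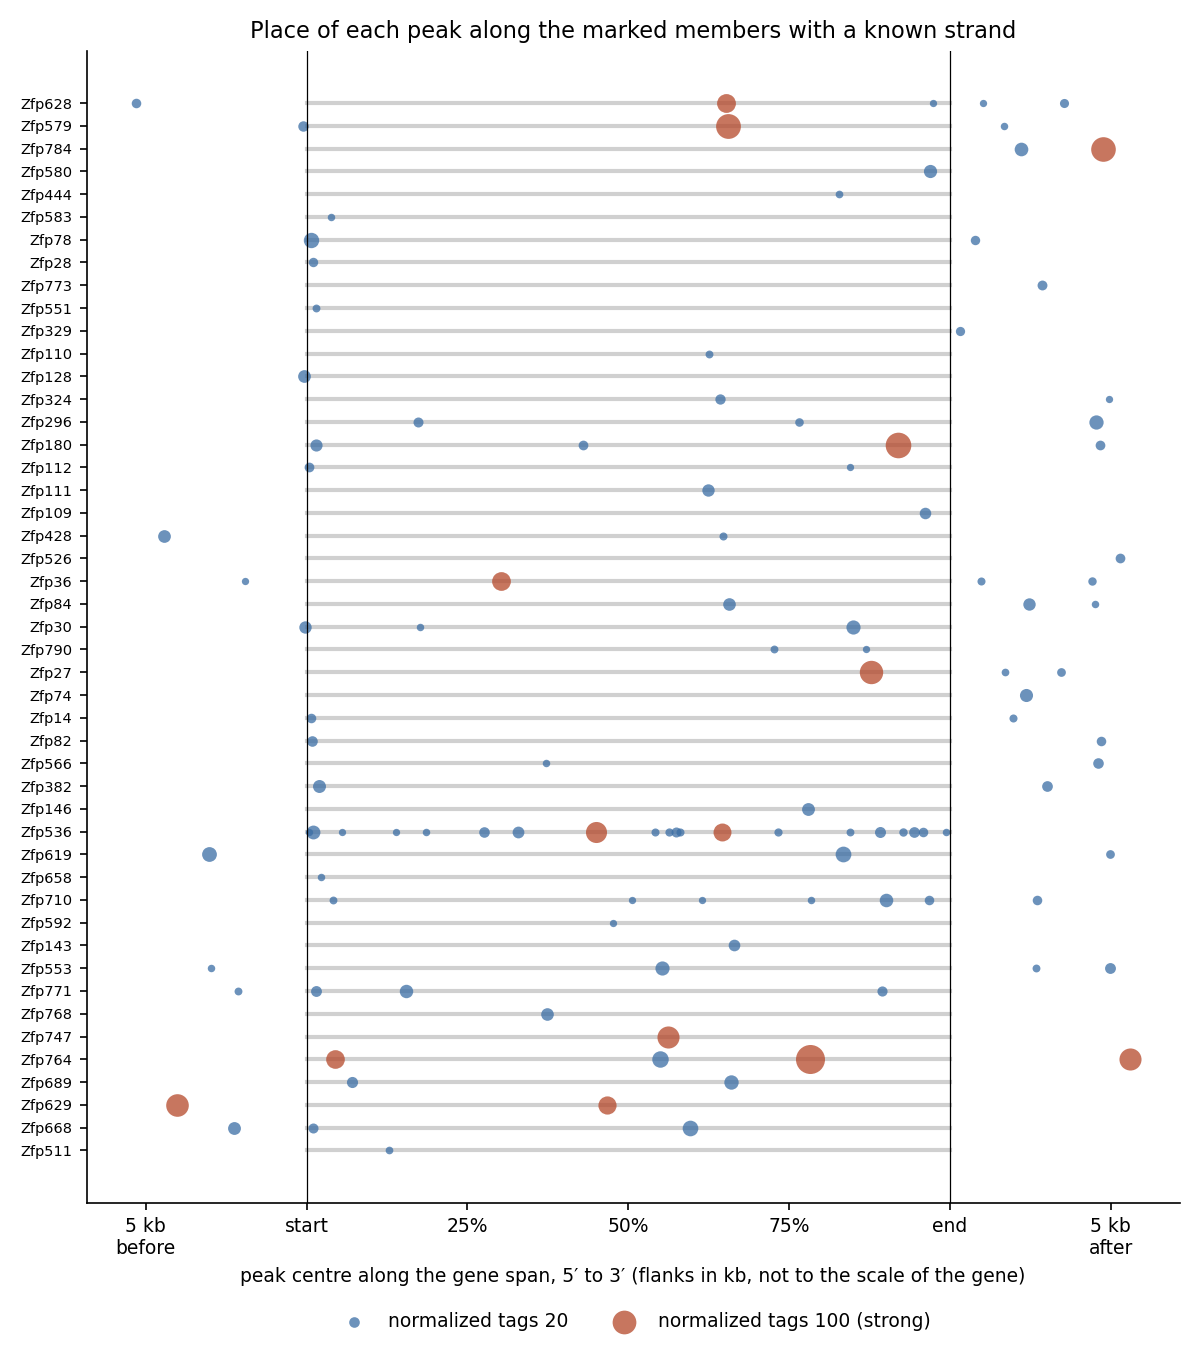
Centre of each peak along the gene from 5′ to 3′ (x axis, gene scaled to its length, flanks in kb) for each marked member of known strand (y axis, in order along chromosome 7). Point area is proportional to normalized tags and red points are strong; the tall points of Zfp180, Zfp27 and Zfp764 sit toward the 3′ end, and that of Zfp36 nearer the start.

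The CpG content of promoters overlapped widely between members with and without a peak at the start. In a window from 250 bases before to 50 bases after the start, the 21 members with a start peak had 6 to 35 CpG dinucleotides with a median of 18, the 26 marked members without one had a median of 15, and the 26 unmarked members had 1 to 27 with a median of 13.5. The median was 13 over 17491 protein-coding genes and 7 over those of chromosome 7. At least 10 CpG were held by 18 of the 21 (85.7%), 18 of the 26 marked without a start peak (69.2%) and 19 of the 26 unmarked (73.1%), and by 57.2% of all promoters. A peak touched the promoter window at 16 of the 73 members and covered it whole at 11. The same was not counted for other promoters, so these counts cannot be read as high or low. The hexamer TGCCGC, searched on both strands (GCGGCA on the other) and known as the core read by the KRAB protein ZFP57 when methylated, occurred in 7 of 73 member promoters (9.59%) and 13.9% of all. It stood in 4 of the 21 with a start peak, which are Zfp382, Zfp128, Zfp764 and Zfp511, and in 1 of the 26 unmarked, Zfp688.

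The 4 promoters touched by the tallest peaks are shown so that their CpG content can be read against the mark, from RefSeq on GRCm38.p6, 5′ to 3′ on the strand of the gene with CG in capitals. That of Zfp36 is chr7:28379179-28379478 (minus strand), with 21 CpG and 205 of its 300 bases under the peak of 59.5 ChIP tags. That of Zfp78 is chr7:6363058-6363357 (plus strand), with 13 CpG and all of it under a peak of 40 ChIP tags. Those of Zfp536, chr7:37769703-37770002 (minus strand), and Zfp771, chr7:127244276-127244575 (plus strand), have 22 and 25 CpG and lie wholly under peaks of 32.5 and 30.5 ChIP tags.
Zfp36: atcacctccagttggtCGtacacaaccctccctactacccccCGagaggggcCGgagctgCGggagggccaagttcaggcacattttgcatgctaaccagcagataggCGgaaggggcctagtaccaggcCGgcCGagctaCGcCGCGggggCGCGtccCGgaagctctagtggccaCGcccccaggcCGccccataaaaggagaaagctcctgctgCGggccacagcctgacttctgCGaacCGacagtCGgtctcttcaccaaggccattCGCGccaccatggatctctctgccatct
Zfp78: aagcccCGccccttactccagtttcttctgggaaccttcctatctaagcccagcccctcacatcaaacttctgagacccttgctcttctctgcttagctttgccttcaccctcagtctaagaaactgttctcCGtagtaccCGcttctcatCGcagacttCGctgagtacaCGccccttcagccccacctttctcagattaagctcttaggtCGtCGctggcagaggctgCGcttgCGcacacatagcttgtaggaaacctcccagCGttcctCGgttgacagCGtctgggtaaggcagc
Zfp536: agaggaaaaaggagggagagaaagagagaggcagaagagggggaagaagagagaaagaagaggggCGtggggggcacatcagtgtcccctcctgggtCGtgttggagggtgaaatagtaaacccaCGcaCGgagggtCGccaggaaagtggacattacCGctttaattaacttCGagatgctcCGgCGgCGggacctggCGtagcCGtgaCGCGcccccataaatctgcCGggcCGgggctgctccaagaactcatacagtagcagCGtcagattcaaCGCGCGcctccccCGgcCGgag
Zfp771: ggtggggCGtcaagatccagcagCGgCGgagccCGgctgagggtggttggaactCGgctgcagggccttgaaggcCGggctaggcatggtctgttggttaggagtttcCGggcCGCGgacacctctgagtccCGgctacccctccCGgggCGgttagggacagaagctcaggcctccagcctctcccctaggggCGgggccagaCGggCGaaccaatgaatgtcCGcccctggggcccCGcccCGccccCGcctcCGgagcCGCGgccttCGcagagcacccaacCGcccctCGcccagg

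Set beside them are the first, middle and last unmarked members along the chromosome. The promoter of Zfp787 is chr7:6155916-6156215 (minus strand) with 27 CpG, that of Zfp626 is chr7:27806946-27807245 (plus strand) with 2, and that of Zfp688 is chr7:127421985-127422284 (minus strand) with 22. The counts of Zfp787 and Zfp688 lie within the 6 to 35 of the members with a start peak and that of Zfp626 lies below them, and none has a peak within 5 kb of the gene.
Zfp787: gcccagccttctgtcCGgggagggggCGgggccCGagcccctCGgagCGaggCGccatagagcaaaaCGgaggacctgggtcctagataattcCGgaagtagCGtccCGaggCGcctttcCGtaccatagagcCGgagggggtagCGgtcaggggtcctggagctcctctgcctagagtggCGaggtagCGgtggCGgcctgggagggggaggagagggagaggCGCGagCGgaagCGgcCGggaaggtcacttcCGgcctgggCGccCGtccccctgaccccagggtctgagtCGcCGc
Zfp626: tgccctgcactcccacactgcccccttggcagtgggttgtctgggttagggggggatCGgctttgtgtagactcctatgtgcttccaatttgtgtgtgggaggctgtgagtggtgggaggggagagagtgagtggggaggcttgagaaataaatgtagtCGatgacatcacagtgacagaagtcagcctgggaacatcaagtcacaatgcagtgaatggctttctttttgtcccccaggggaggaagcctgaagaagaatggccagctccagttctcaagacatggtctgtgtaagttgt
Zfp688: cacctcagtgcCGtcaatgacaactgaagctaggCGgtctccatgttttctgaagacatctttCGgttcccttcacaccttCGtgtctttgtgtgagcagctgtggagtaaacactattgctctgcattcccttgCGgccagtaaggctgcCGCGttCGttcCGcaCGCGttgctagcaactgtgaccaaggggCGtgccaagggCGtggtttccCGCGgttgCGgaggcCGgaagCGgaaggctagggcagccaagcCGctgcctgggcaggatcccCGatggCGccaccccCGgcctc

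Genes of the silencing pathway, a list of H3K9 and DNA methyltransferases, demethylases, corepressors and other chromatin proteins, were marked at 19 of 30, beside the background of 55.4% of all protein-coding genes. A strong peak lay over 3 of them, beside 6.59% of all protein-coding genes. They are the H3K9 methyltransferase gene Ehmt2 with 5 peaks and 69.7 normalized tags in the tallest, the chromatin remodeller gene Chd4 with 58.7, and the histone chaperone gene Daxx with 135.7. The DNA methyltransferase gene Dnmt3a and the H3K9 demethylase gene Kdm4a had 5 peaks each, none strong. Trim28, the corepressor itself and a gene of chromosome 7, had 2 peaks with 14.1 normalized tags in the taller. No peak was called over Setdb1, Setdb2, Suv39h2, the heterochromatin protein 1 genes Cbx1, Cbx3 and Cbx5, Mphosph8, Pphln1, Dnmt3b, Hdac1 or Hdac2.

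The limit at 900 is a matter of symbols, and some genes beyond it on the chromosome stand next to members. Just inside it, Zfp865 had 4 peaks and Zfp850 had 0. Just outside it, Zfp936 had 3 peaks, 2 of them strong, and Zfp939 had 0. Of the 9 chromosome 7 genes numbered 900 and above, 4 were marked (44.4%, 13.7 to 78.8%), with 59.5 tags in peaks per 100 kb, beside 54 of the 81 members with 132 and the background of 53.2% on the chromosome. Zfp940, Zfp977 and Zfp975 had 1 peak each, and Zfp954, Zfp974, Zfp976 and Zfp941 had none.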

How the data were processed

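The data are 1 H3K9me3 ChIP library and 1 control library from sorted mouse intestinal stem cells. The tools were Bowtie2 2.2.8 and HOMER 4.10.1 on GRCm38 (mm10), per the submitters' processing notes. Caller options and scaling total were not given in the sources used here. Column names are those of HOMER findPeaks, per the file headers. The deposited normalized tag count and the deposited control tags are coverage signals per peak. The authors' score ranks peaks within the list, and was used for an alternative and a filter only. The deposited fold is a ratio of ChIP to control tags after library scaling, and none was under 4. The deposited p-value per peak came from the caller (highest 8.32e-05). The 147 peaks on scaffolds were not used, and control tags were seen only within peaks.

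Gene spans came from a RefSeq table of GRCm38.p6 (49997 genes) without exons. Strand and starts came from a RefSeq promoter table that matched 73 members. Zfp524, Zfp865, Zfp446, Zfp114, Zfp575, Zfp574, Zfp568 and Zfp646 did not match and entered no result on place. A peak counts for every gene whose span plus 5 kb it touches, and in results on place a peak over 2 genes counts for each. Clusters join members within 500 kb. The members and gene lists were chosen with earlier results of these data known. Genes were named if they had a strong peak, 5 or more peaks or were among the 10 with most tags, as unmarked members (first, middle, last, and those in mostly marked clusters), beside the limit at 900, or in the pathway list with most peaks or none. Zfp568, Zfp296, Zfp143, Zfp110, Zfp30, Zfp260, Zfp819, Zfp541, Zfp473 and the remaining cluster members were named after their values were seen. Protein features planned in the design were not analysed here. Overlap counting was tested on simulated peaks at 200 of 2027 chromosome 7 genes, and all 200 were found. Alternatives were other windows, thresholds, overlap rules, merged peaks, nearest genes and cluster gaps. Python 3.11, numpy 2.4.6, pandas 2.3.3, scipy 1.17.1.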

Additional observations from a re-analysis of the deposited data

How the results depend on the processing

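Of 59 alternative values, 42 stayed close to those reported, which for counts of genes, peaks and clusters means within 1.5 times, and for tags and coverage inside the counting interval (3015 to 3235 tags, 4.80 to 4.86%). Marked members ranged from 42 to 64 over the alternatives and clusters with a peak from 8 to 10 (of 11 clusters at a gap of 250 kb). With the gene span alone, coverage was 5.08% (4.83% as reported) and tags were 2639 (3123.5 as reported). With 10 kb on either side they were 4.67% and 3757.5, and unmarked members numbered 17 against 27. With a fold of at least 8 they were 3.88% and 2406. With peaks at or above the median score they were 2.998% and 2074.5. Separate peaks then numbered 69 against 122, and members with a strong peak 7 against 12. With peaks within 5 kb merged, coverage and tags were 8.28%, gaps included, and 3252, with 19 strong members. With a peak given to the nearest gene alone they were 4.43% and 2889. With strong set at the top 20% there were 21 strong members. These moves follow from fewer or more peaks, or wider ones, being counted. Members whose tallest peak lay past the midpoint were 26 by the authors' score against 29 by tags.

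No paired analysis was possible because there was 1 library per group and no test. At this depth the median peak over members rested on 17 tags, and 42 of 122 peaks on 12 or fewer, so which members are unmarked depends on depth and on the caller's threshold. Folds at the control floor of 0.5 tag (44.3% of peaks over members) depend on that floor. Zfp genes are repeated in sequence, and how reads that map to several places were treated is not given in the sources used here.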
